A study of Homo sapiens with 6 samples.

Results

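The miR-29 family is a small set of microRNAs, and it was measured here as 7 mature arms chosen by name: hsa-miR-29a-3p, hsa-miR-29a-5p, hsa-miR-29b-3p, hsa-miR-29b-1-5p, hsa-miR-29b-2-5p, hsa-miR-29c-3p and hsa-miR-29c-5p, written below without the prefix for human. These were 7 of the 1596 mature miRNAs in the count table. All 7 held enough reads to be tested. They were picked by name and not by a threshold on their values, although earlier results of these data were known at the time. Small RNA had been sequenced from human melanoma cells after 24 hours under either of a pair of treatments. The combined treatment group, given RSL3 with IFN-γ, had 3 libraries, and the RSL3 monotreatment group also had 3. RSL3 blocks GPX4, the peroxidase that protects membrane lipids, and so drives ferroptosis, an iron-dependent form of cell death. IFN-γ is a cytokine of activated lymphocytes. Both groups therefore received RSL3, and their comparison asks what the added IFN-γ did to miRNA levels in cells already exposed to a ferroptosis inducer. No library of untreated cells or of cells given IFN-γ alone was analysed here.

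The sample labels name the cells as A2058, whereas the text of the study names A375 for this experiment. Both are established human melanoma lines, and which one was sequenced could not be settled. The sources also name different library kits, one for small RNA and one for directional RNA. The study says in general that its experiments were repeated, but no source used here states that these libraries came from separate cultures, so every p-value measures a spread between libraries that may be technical only. Library totals were 4383940 to 5367150 reads in the combined treatment group and 4897890 to 6513382 reads in the RSL3 monotreatment group. MiR-211-5p, a miRNA of the melanocyte lineage, was present at a mean of 335 CPM, which are counts scaled to a common library size, in the combined treatment group and 286 CPM in the RSL3 monotreatment group. The summed level of 4 melanocyte and melanoma markers ran from 490 to 578 CPM in the combined treatment group and from 575 to 742 CPM in the RSL3 monotreatment group. Of these 4, miR-211-5p alone had a higher mean in the combined treatment group. In that group miR-204-5p averaged 170 CPM, miR-514a-3p 24.4 CPM and miR-509-3p 0.282 CPM. In the RSL3 monotreatment group these averaged 286, 63.8 and 1.94 CPM. MiR-223-3p, the defining miRNA of myeloid cells, averaged 0.191 CPM in the combined treatment group and 1.65 CPM in the RSL3 monotreatment group. Of the other blood markers, miR-451a, miR-142-3p and miR-144-3p had higher means in the combined treatment group, and miR-142-5p a lower one. MiR-451a averaged 183 CPM in the combined treatment group and 113 CPM in the RSL3 monotreatment group.

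A miRNA hairpin is cut into a 5p and a 3p arm, and the arm that is loaded into an Argonaute protein pairs with messenger RNAs through its seed, a short stretch near the 5′ end. The 3p arms of miR-29 share a seed and are known to repress collagens and other extracellular matrix genes, the DNA methyltransferases DNMT3A and DNMT3B, and the survival factor MCL1. The family is known to be repressed by MYC and to respond to interferon signalling in melanoma cells.

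The mature sequences are shown because the arms differ by few bases, which bears on how reads could be told apart, and because the shared seed defines the family. They are RefSeq sequences on GRCh38.p14, written 5′ to 3′, with the seed (bases 2 to 8) in capitals.
miR-29a-3p: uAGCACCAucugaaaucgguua
miR-29b-3p: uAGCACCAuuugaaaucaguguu
miR-29c-3p: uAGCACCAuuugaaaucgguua
miR-29a-5p: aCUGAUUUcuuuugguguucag
miR-29b-1-5p: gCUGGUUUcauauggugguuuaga
miR-29b-2-5p: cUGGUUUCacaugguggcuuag
miR-29c-5p: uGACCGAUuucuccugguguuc

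The seed AGCACCA was held by the 3 3p arms and by no other of the 1425 miRNAs of the table that matched a RefSeq sequence. The 4 5p arms had 4 different seeds, and none of these was shared with another matched miRNA. With positions counted from 1 at the 5′ end and miR-29a-3p given first, miR-29c-3p differed from miR-29a-3p only by C10U. Over the same 22 bases miR-29b-3p differed from miR-29a-3p by C10U, G18A, U21G and A22U, and it is 1 base longer. MiR-29b-3p ends in AGUGUU, a hexamer that has been described in HeLa cells as a signal for import into the nucleus. Only miR-519e-3p also ended in these 6 letters, so that 2 of 1425 matched miRNAs (0.14%) did, and 0.632% held them at any position of the sequence as read 5′ to 3′. The letters UUU at positions 9 to 11, described as shortening the life of miR-29b, were found in miR-29b-3p and miR-29c-3p but not in miR-29a-3p, and in 17 matched miRNAs in all (1.19%). These letters are descriptions of the sequences and say nothing of nuclear transport or decay in these cells.

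The arms come from 4 hairpins in 2 pairs, all on the minus strand. They are given because a paired hairpin is read from 1 primary transcript, and because miR-29b-3p is cut from 1 hairpin of each pair. The mature arms are in capitals.
MIR29A: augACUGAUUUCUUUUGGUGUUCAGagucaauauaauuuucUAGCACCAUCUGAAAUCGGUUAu
MIR29B1: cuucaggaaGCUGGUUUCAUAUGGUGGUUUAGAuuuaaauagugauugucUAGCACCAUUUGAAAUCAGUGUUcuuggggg
MIR29B2: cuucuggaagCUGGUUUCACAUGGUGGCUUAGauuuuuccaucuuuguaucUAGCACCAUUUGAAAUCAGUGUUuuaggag
MIR29C: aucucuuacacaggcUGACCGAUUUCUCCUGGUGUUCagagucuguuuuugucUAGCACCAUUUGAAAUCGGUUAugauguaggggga

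On GRCh38, MIR29A lies at chr7:130876747-130876810 and MIR29B1 at chr7:130877459-130877539, with 648 bases between them. MIR29C lies at chr1:207801852-207801939 and MIR29B2 at chr1:207802443-207802523, with 503 bases between them. In GENCODE 29, MIR29B2 and MIR29C lie within exon 5 of the long non-coding RNA MIR29B2CHG. MIR29B1 lies within exon 4 of the long non-coding RNA LINC-PINT, and MIR29A overlaps the end of that exon only in part. Both chromosome 7 hairpins also lie within the gene AC016831.6 on the same strand, and opposite LINC00513 on the plus strand. Reads of miR-29b-3p cannot be assigned to chromosome 7 or chromosome 1, since the mature sequence is the same from both.

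Reads of the family came almost wholly from the 3p arms of miR-29a and miR-29b. The levels that follow are TMM-scaled CPM, in which counts scaled to the library total are corrected by a factor per library that balances the bulk of the miRNAs. They are per read and not per base, for arms of 22 to 24 bases. MiR-29b-3p was the 64th most abundant miRNA of the table, and the other 5 arms below it ranked from 234 for miR-29a-5p to 645 for miR-29b-2-5p. MiR-29a-3p was the 31st. Its neighbours in this order of means over 6 libraries were miR-582-3p and miR-10b-5p, and the order turned between the groups. In the combined treatment group miR-29a-3p, at 4483 ± 802 CPM, stood above miR-582-3p at 3548 ± 743 CPM and miR-10b-5p at 3014 ± 1135 CPM (SD, n = 3 each). In the RSL3 monotreatment group it stood below them, at 4284 ± 705 CPM, against 5608 ± 1144 CPM for miR-582-3p and 5713 ± 639.9 CPM for miR-10b-5p. MiR-29b-3p likewise stood above its neighbours miR-361-3p (1356 ± 259.9 CPM) and miR-532-5p (1261 ± 152 CPM) in the combined treatment group, and below them in the RSL3 monotreatment group, where they had 1705 ± 149 CPM and 1545 ± 171 CPM. Within the family the order of mean levels was miR-29a-3p, miR-29b-3p, miR-29a-5p, miR-29c-5p, miR-29b-1-5p, miR-29c-3p and miR-29b-2-5p. The ranges over 6 libraries overlapped for only 2 neighbouring pairs in this order. MiR-29a-5p exceeded miR-29c-5p in 6 of 6 libraries, and miR-29b-1-5p exceeded miR-29c-3p in 5 of 6.

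**Figure D1:**
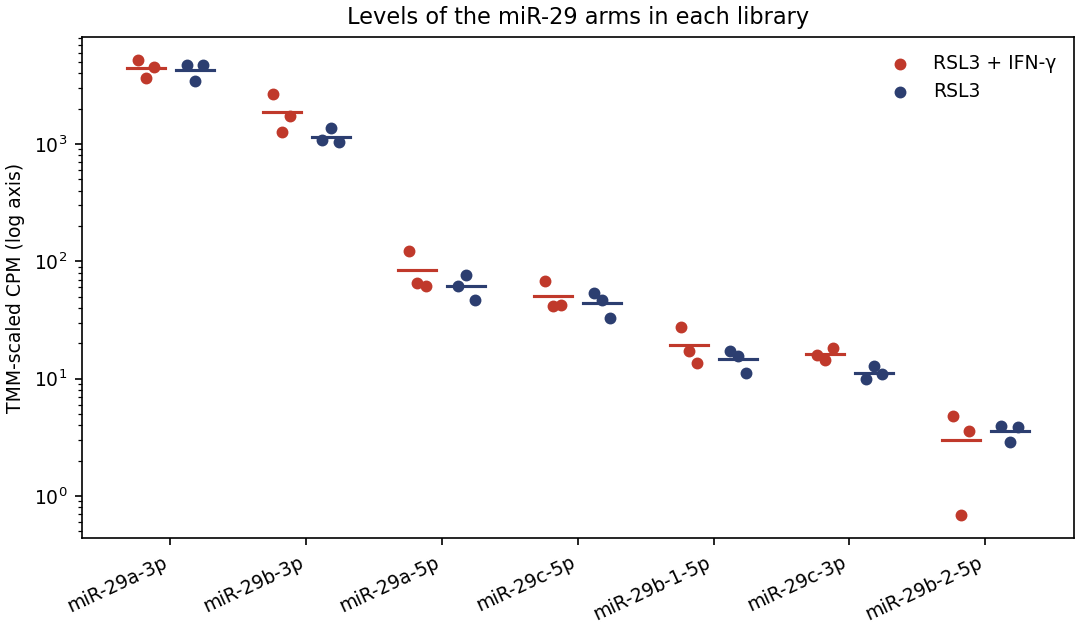
TMM-scaled CPM (log axis) of each miR-29 arm in each library, with the RSL3 + IFN-γ libraries left of the RSL3 libraries. Points are libraries and bars are group means. MiR-29a-3p and miR-29b-3p lie between 1041 and 5249 CPM, the other 5 arms reach at most 124 CPM, and of the 7 arms only miR-29c-3p shows groups that do not overlap.

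In the comparison of the combined treatment with RSL3 alone, no miR-29 arm passed the test. With edgeR's quasi-likelihood test over 758 miRNAs and a Benjamini-Hochberg adjusted p under 0.05 as the threshold, 0 of the 7 arms were called, and 36 miRNAs (4.75%) were called in the whole table. DESeq2 and limma also called 0 arms. At an unadjusted p under 0.05, 1 arm, miR-29b-3p, was higher by each of edgeR, DESeq2 and limma, and 12.8% of all tested miRNAs were higher at that level by edgeR. With the replicate number as a block the unadjusted edgeR p of miR-29b-3p was 0.0649, and with upper-quartile factors it was 0.0820, so that 0 arms were then under 0.05. The log2 fold change was above 0 for 6 of the 7 arms, with a median of 0.40, against a median of −0.038 and 48.4% above 0 over all tested miRNAs. Library 1 of the combined treatment carried much of this: without it 4 of the 7 arms were above 0 and the median was 0.038. Without RSL3 library 3, 5 arms were above 0 and the median was 0.21. In bulk libraries such as these, a change in the number of cells that make a miRNA and a change in its amount per cell cannot be told apart.

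MiR-29b-3p had the largest estimate of the 3 3p arms with all 6 libraries. It was counted at 2693, 1257 and 1720.25 CPM in the combined treatment libraries 1, 2 and 3, against 1078, 1357 and 1041 CPM in the RSL3 libraries 1, 2 and 3. Library 1 of the combined treatment was the highest, and library 2 of the combined treatment lay below library 2 of RSL3, so the groups overlapped. The means were 1890 ± 733 CPM in the combined treatment group and 1158 ± 173 CPM in the RSL3 monotreatment group (SD, n = 3 each), a 1.63-fold difference. The log2 fold change was 0.71 (SE 0.293, 95% interval 0.056 to 1.36), with an unadjusted p of 0.0358 and an adjusted p of 0.164 from edgeR's quasi-likelihood test. Without combined treatment library 1 it was 0.35 (edgeR adjusted p = 0.370), below the 0.54 of miR-29c-3p in the same fit.

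MiR-29a-3p, the most abundant arm, had 5249, 3650.1 and 4549.8 CPM in the combined treatment libraries, against 4689, 3471 and 4693 CPM in the RSL3 libraries. Library 2 was the lowest of each group, and the groups overlapped over most of their range. The log2 fold change was 0.065 (SE 0.236, 95% interval −0.46 to 0.59, edgeR adjusted p = 0.883). That interval overlaps the 0.056 to 1.36 of miR-29b-3p, and the test does not show that miR-29a-3p stayed the same.

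MiR-29c-3p differs from miR-29a-3p by 1 base but was counted far less often. It had 15.95, 14.5 and 18.2 CPM in the combined treatment libraries, against 9.87, 12.7 and 11.03 CPM in the RSL3 libraries. It was the 1 arm of 7 whose groups did not overlap, and 15% of all tested miRNAs were higher in the combined treatment without overlap. Its means were 16.2 ± 1.88 CPM in the combined treatment group and 11.2 ± 1.45 CPM in the RSL3 monotreatment group (SD, n = 3 each). The log2 fold change was 0.54 (SE 0.280, 95% interval −0.085 to 1.156, edgeR adjusted p = 0.258). These levels rest on 66, 85 and 113 reads in the combined treatment libraries, against 50, 57 and 63 reads in the RSL3 libraries. The lowest of these counts, 50, has an exact Poisson 95% interval of 37.1 to 65.9, and the highest, 113, one of 93.1 to 136, both for counting error only. Against miR-29a-3p in the same library, miR-29c-3p reads came to 0.304%, 0.398% and 0.401% in the combined treatment group, and to 0.210%, 0.367% and 0.235% in the RSL3 monotreatment group. A read with 1 changed base at position 10 would pass between these arms, and the sources used here do not say which mismatches were allowed in counting, so the values of miR-29c-3p are uncertain.

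The 5p arms of the chromosome 7 pair were both highest in library 1 of the combined treatment. MiR-29a-5p had 124, 65.9 and 61.4 CPM in the combined treatment libraries, against 61.6, 76.5 and 47.1 CPM in the RSL3 libraries, with overlapping groups. Its log2 fold change was 0.44 (SE 0.319, 95% interval −0.27 to 1.14, edgeR adjusted p = 0.414), and 0.038 without combined treatment library 1. MiR-29b-1-5p had 27.8, 17.1 and 13.6 CPM in the combined treatment libraries, against 17.2, 15.7 and 11.2 CPM in the RSL3 libraries, again with overlap. Its log2 fold change was 0.40 (SE 0.338, 95% interval −0.35 to 1.15, edgeR adjusted p = 0.487), and 0.056 without that library. Both values thus rested on 1 library.

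The 5p arms of the chromosome 1 pair had smaller estimates. MiR-29c-5p had 67.7, 41.9 and 42.5 CPM in the combined treatment libraries, against 54.3, 46.5 and 32.7 CPM in the RSL3 libraries. The groups overlapped, and the log2 fold change was 0.18 (SE 0.293, 95% interval −0.46 to 0.83, edgeR adjusted p = 0.722). MiR-29b-2-5p, the rarest arm, had 4.83, 0.683 and 3.55 CPM in the combined treatment libraries, against 3.95, 2.91 and 3.85 CPM in the RSL3 libraries. Library 2 of the combined treatment stood apart with 4 reads, whose exact Poisson 95% interval is 1.09 to 10.2, while the other 5 libraries held 13 to 22 reads. The log2 fold change was −0.27 (SE 0.611, 95% interval −1.62 to 1.08, edgeR adjusted p = 0.806), and 0.21 without that library. A difference in miR-29b-2-5p was not detectable at this depth.

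**Figure D2:**
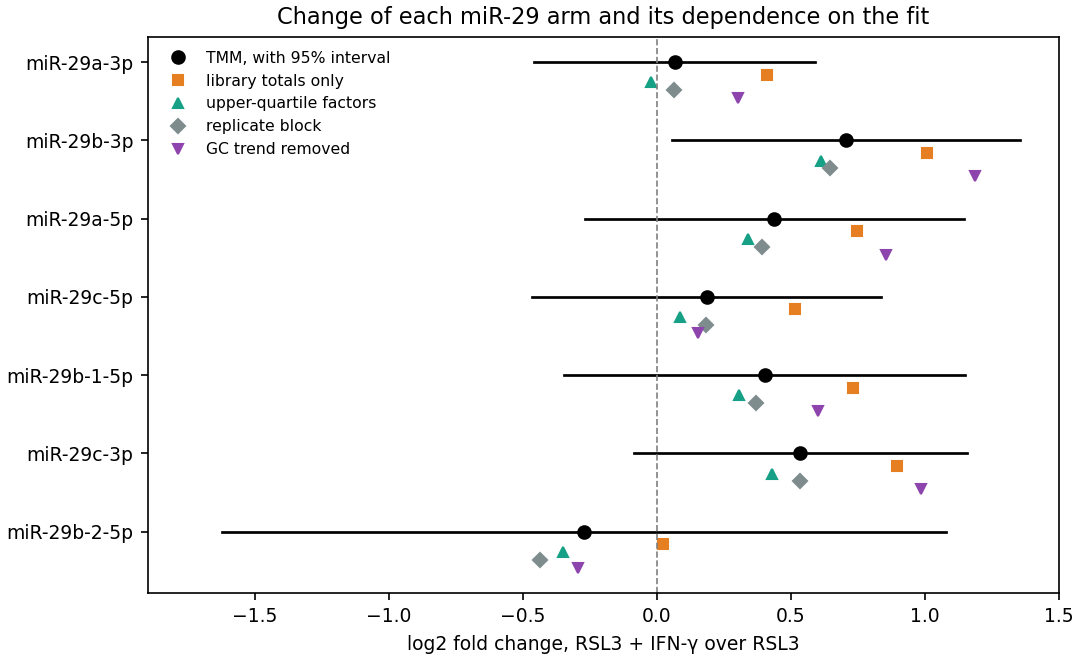
Log2 fold change of each miR-29 arm, RSL3 + IFN-γ over RSL3 (horizontal axis). Black circles with lines are the edgeR estimate with TMM factors and its 95% interval, and coloured marks are the same estimate with library totals only, upper-quartile factors, a replicate block, or the trend with GC content removed. The interval of miR-29b-3p runs from 0.056 to 1.36, and those of the other 6 arms include 0.

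The scaling between libraries set how large these differences were. As a share of all reads, the 7 arms together made up 0.772%, 0.671% and 0.740% of the combined treatment libraries, against 0.509%, 0.455% and 0.512% of the RSL3 libraries. Each share has an exact binomial 95% interval of counting error that is narrow beside the gap, such as 0.663% to 0.678% for the lowest combined treatment library and 0.507% to 0.518% for the highest RSL3 library. The groups thus did not overlap, at 0.728% ± 0.0519 in the combined treatment group and 0.492% ± 0.0323 in the RSL3 monotreatment group (SD, n = 3 each). By this share 6 of the 7 arms were higher in all combined treatment libraries than in any RSL3 library, miR-29b-2-5p being the exception, and so were 26.0% of all tested miRNAs. TMM factors were 0.944, 1.33 and 1.155 in the combined treatment libraries, against 0.861, 0.913 and 0.877 in the RSL3 libraries, so that scaling raised the values of combined treatment library 1 and of all 3 RSL3 libraries and lowered those of combined treatment libraries 2 and 3. After that scaling the summed 3p arms stood at 7958, 4921 and 6288 CPM in the combined treatment libraries, against 5776, 4840 and 5745 CPM in the RSL3 libraries, with overlap.

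Over all 758 miRNAs the median log2 fold change depended on the scaling, at −0.038 with TMM factors, −0.13 with upper-quartile factors and 0.33 with library totals only. With library totals only, miR-29b-3p passed the test at a log2 fold change of 1.01 (edgeR adjusted p = 0.0383), where 71 of 758 miRNAs (9.37%) were called. Relative to the median of all miRNAs, the log2 fold change of miR-29b-3p was 0.74 with TMM factors, 0.75 with upper-quartile factors and 0.68 with library totals only. That of miR-29a-3p was 0.10, 0.11 and 0.077 on the same scales. With each of these 3 scalings 6 of the 7 arms lay above the median of all miRNAs. Over the 16 alternatives tried for miR-29b-3p the edgeR, DESeq2 or limma adjusted p ran from 0.0383 to 0.406.

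**Figure D3:**
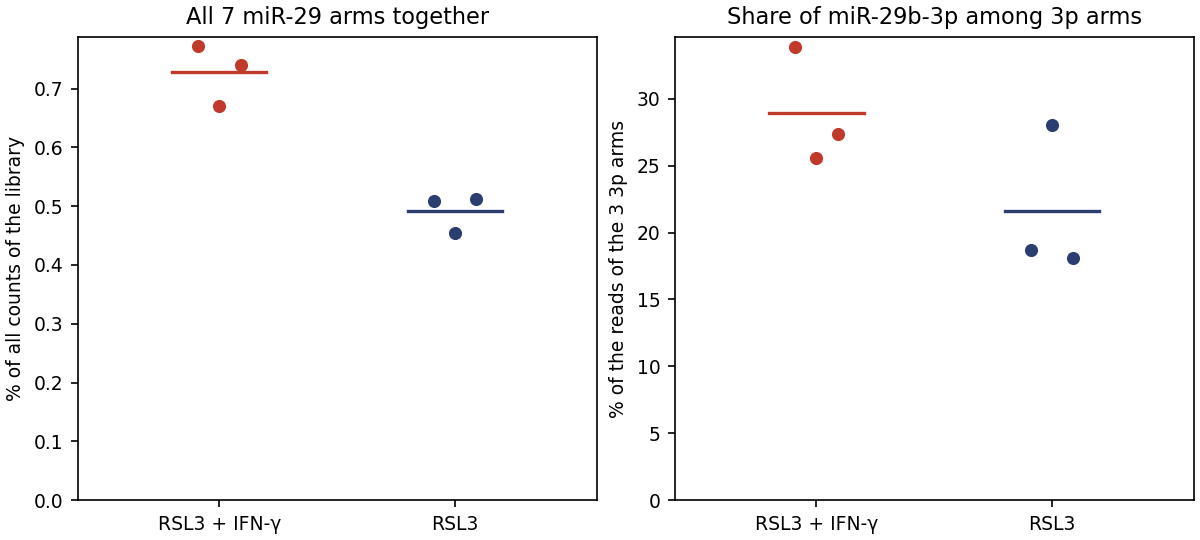
Left, reads of the 7 miR-29 arms as a percentage of all reads of the library. Right, reads of miR-29b-3p as a percentage of the reads of the 3 3p arms. Points are libraries, bars are group means, both axes start at 0, and RSL3 + IFN-γ stands left of RSL3. The groups do not overlap on the left (0.671% to 0.772% against 0.455% to 0.512%) and do overlap on the right.

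Log2 fold changes across the table also followed base composition. Across 679 tested miRNAs with a sequence, Spearman's rho between GC content and log2 fold change was 0.469, a description across genes that share the same 6 libraries. GC content of the miR-29 arms ran from 34.8% in miR-29b-3p to 50% in miR-29b-2-5p and miR-29c-5p. The median of tested miRNAs was also 50%, so no arm lay above it. With the trend on GC content removed in each library, the log2 fold change of miR-29b-3p was 1.19 (edgeR adjusted p = 0.0510). That of miR-29c-3p was then 0.99 (edgeR adjusted p = 0.0909) and that of miR-29a-5p was 0.86 (edgeR adjusted p = 0.139). No arm passed the adjusted threshold with the trend removed, where 20 of 758 miRNAs (2.64%) were called. In that fit 3 arms were under an edgeR unadjusted p of 0.05, and the share of all miRNAs under it was not counted. With the trend kept, 97 of all 758 miRNAs were higher and 99 lower at that level. What made the trend was not tested.

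Ratios within a library do not depend on the scaling. MiR-29b-3p reads per miR-29a-3p read were 0.513, 0.344 and 0.378 in the combined treatment libraries, against 0.230, 0.391 and 0.222 in the RSL3 libraries. Library 2 of RSL3 lay among the combined treatment libraries, and the other RSL3 libraries lay below all of them. The mean log2 difference was 0.58, a 1.497-fold higher ratio (two-sided exact permutation p = 0.3, adjusted p = 0.4 over the 4 ratios tested, where 3 libraries against 3 cannot give a p below 0.1). Read as a share, miR-29b-3p made up 28.9% ± 4.36 of the 3p reads in the combined treatment group and 21.6% ± 5.58 in the RSL3 monotreatment group (SD, n = 3 each). MiR-29c-3p over miR-29a-3p differed by 0.47 on the log2 scale (exact permutation p = 0.2, adjusted p = 0.4).

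The pair of 5p arms from chromosome 7 had the smallest difference of the 4 ratios. MiR-29b-1-5p reads per miR-29a-5p read were 0.225, 0.260 and 0.222 in the combined treatment libraries, against 0.280, 0.206 and 0.239 in the RSL3 libraries. The ranges overlapped, and the mean log2 difference was −0.028 (exact permutation p = 1, adjusted p = 1). The summed 5p arms of chromosome 7 over those of chromosome 1 were 2.09, 1.95 and 1.63 in the combined treatment libraries, against 1.35, 1.86 and 1.59 in the RSL3 libraries. That difference was 0.24 on the log2 scale (exact permutation p = 0.2, adjusted p = 0.4). Across the 6 libraries, Pearson's r of log2 CPM was 0.938 between miR-29a-5p and miR-29b-1-5p and 0.930 between miR-29b-1-5p and miR-29c-5p. It was 0.199 between the 2 arms of miR-29a. These 6 points share library and scaling factor, and the values are a description.

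The arms used differed between the hairpins. The 3p arms held 97.2% to 98.4% of the family's reads in each library. MiR-29a gave 42.4, 55.3 and 74.1 3p reads per 5p read in the combined treatment libraries, against 76.0, 45.3 and 99.5 in the RSL3 libraries. For miR-29b, whose 3p reads were set against the summed 5p reads of both hairpins, the ratio was 82.2, 70.4 and 100.1 in the combined treatment libraries, against 50.8, 72.7 and 68.7 in the RSL3 libraries. MiR-29c was the reverse, with more 5p than 3p reads in all 6 libraries, at 0.237, 0.348 and 0.431 3p reads per 5p read in the combined treatment libraries, against 0.183, 0.276 and 0.339 in the RSL3 libraries. These were set among 182 hairpins with both arms measured, counting miR-29b, the only 1 whose arms are not named alike. Ordered by mean log2 ratio of 3p over 5p reads, miR-29b was at position 7, miR-29a at 14 and miR-29c at 109. The median hairpin stood at −0.57. The order of miR-29c rests on the miR-29c-3p counts whose uncertainty is given above.

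No arm ratio of the family differed between treatments by the test. The change in log2 ratio was −0.33 for miR-29a (SE 0.419, limma adjusted p = 0.675), 0.40 for miR-29b (SE 0.347, limma adjusted p = 0.543) and 0.35 for miR-29c (SE 0.400, limma adjusted p = 0.633). By limma 0 of the 182 hairpins (0%) were called, without or with the replicate block, and 35 had an unadjusted p under 0.05. The smallest adjusted p over all hairpins was 0.0651.

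Other miRNAs tied to the same pathways were counted from 3 lists. Of 8 miRNAs known to answer interferon or NF-κB signalling, 0 rose and 1 fell by edgeR, 3 had an unadjusted p under 0.05, and the list's median log2 fold change was −0.034. Over all 758 tested miRNAs edgeR called 4.75%. At an edgeR unadjusted p under 0.05, 97 of the 758 were higher and 99 were lower. MiR-9-5p, which represses NF-κB1 and is itself induced by inflammatory signals, fell to 2057 CPM in the combined treatment group, against 6318 CPM in the RSL3 monotreatment group (log2 fold change −1.62, SE 0.370, edgeR adjusted p = 0.0363). MiR-146a-5p, a feedback inhibitor of Toll-like receptor signalling, averaged 114800 CPM in the combined treatment group and 100200 CPM in the RSL3 monotreatment group, a log2 fold change of 0.20. MiR-146b-5p, of the same seed family, averaged 1428 CPM in the combined treatment group and 969 CPM in the RSL3 monotreatment group, with a log2 fold change of 0.56. MiR-155-5p, a miRNA of activated immune cells, had a log2 fold change of −0.20. None of these 3 passed. MiR-147b-3p, a miRNA induced by inflammatory stimuli, did not pass without the replicate block (log2 fold change 1.09, edgeR adjusted p = 0.0890). It passed with the replicate number as a block (edgeR adjusted p = 0.0439), where 82 of all 758 tested miRNAs (10.8%) were called. Of this list of 8, 1 rose and 1 fell with the block.

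Of 17 miRNAs known, like miR-29, to be repressed by MYC, 1 rose and 16 did not pass, with a median log2 fold change of −0.24 and 5 values above 0. At an edgeR unadjusted p under 0.05 there were 3: miR-22-3p was higher, and let-7g-5p and miR-195-5p were lower. MiR-22-3p, which is processed from a long non-coding RNA of its own, rose to 4277 CPM in the combined treatment group, against 1906 CPM in the RSL3 monotreatment group (log2 fold change 1.17, SE 0.209, edgeR adjusted p = 0.0184). The most abundant others were miR-146a-5p, given above, and let-7a-5p, let-7g-5p and miR-26a-5p, with log2 fold changes of 0.27, −0.68 and −0.29. Of 5 other miRNAs known to target DNA methyltransferases, 0 were called by edgeR without or with the replicate block and 2 had an unadjusted p under 0.05, with a median log2 fold change of −0.58. In the whole table edgeR called 4.75% without the block and 10.8% with it. Without the block, 97 of all 758 tested miRNAs were higher and 99 lower at that unadjusted p. MiR-148a-3p averaged 23560 CPM in the combined treatment group and 35110 CPM in the RSL3 monotreatment group, a log2 fold change of −0.58. The values were −0.61 for miR-148b-3p, 0.22 for miR-152-3p, −0.22 for miR-101-3p and −1.11 for miR-143-3p. The 2 under an edgeR unadjusted p of 0.05 were miR-148a-3p and miR-143-3p. On these lists miR-29b-3p, at 0.71, had a larger log2 fold change than any member but miR-22-3p and miR-147b-3p, and no test of that order was made.

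Markers of other cell types were summed in each library. The mesenchymal markers ran from 314 to 540.1 CPM in the combined treatment group and from 367 to 1241 CPM in the RSL3 monotreatment group, and epithelial markers from 81.5 to 102 CPM in the combined treatment group and from 87.5 to 130 CPM in the RSL3 monotreatment group. Blood markers, mostly miR-451a of red cells, ran from 84.4 to 332 CPM in the combined treatment group and from 98.9 to 166 CPM in the RSL3 monotreatment group. Muscle markers ran from 204 to 278 CPM in the combined treatment group and from 178 to 1334 CPM in the RSL3 monotreatment group, and the liver miRNA miR-122-5p from 68.3 to 174 CPM in the combined treatment group and from 29.1 to 90.4 CPM in the RSL3 monotreatment group. Without the replicate block 1 of the tested markers passed: miR-514a-3p, of the melanoma cluster on the X chromosome, fell to 24.4 CPM in the combined treatment group, against 63.8 CPM in the RSL3 monotreatment group (edgeR adjusted p = 0.0374). With the replicate block miR-122-5p passed too, at 107 CPM in the combined treatment group and 50.2 CPM in the RSL3 monotreatment group (log2 fold change 1.1 and edgeR adjusted p = 0.180 without the block, edgeR adjusted p = 0.0196 with it). Each marker list had 3 tested members, except liver with 1. Over all 758 tested miRNAs edgeR called 4.75% without the block and 10.8% with it. Whether any of these marker levels had a part in the values of the miR-29 arms was not tested.

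The miRNAs whose levels over the 6 libraries were most like those of miR-29b-3p, out of 203 with a mean of at least 100 CPM, were miR-18a-3p, miR-92b-5p, miR-181a-5p, miR-130b-3p and miR-146a-5p. Their Pearson's r with it was 0.991, 0.975, 0.971, 0.922 and 0.884 on log2 CPM. For miR-29a-3p they were miR-30c-5p, miR-4521, miR-221-3p, miR-155-5p and miR-1303, with r of 0.963, 0.949, 0.941, 0.897 and 0.845. No miRNA stood on both lists. These 10 were picked in the same libraries for likeness to miR-29b-3p or miR-29a-3p, neither of which passed. That none of the 10 passed the edgeR test between treatments was therefore largely set by the choice. Their edgeR adjusted p-values ran from 0.1203 for miR-181a-5p to 0.8996 for miR-1303, and 4.75% of all tested miRNAs were called. MiR-181a-5p, the most abundant after miR-146a-5p, averaged 7682 CPM in the combined treatment group and 4321 CPM in the RSL3 monotreatment group, a log2 fold change of 0.83. With 6 points that share their libraries, such coefficients describe these libraries only.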

How the data were processed

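In the table deposited by the authors, 1596 mature miRNAs have raw counts for 6 libraries. A normalized signal stands beside them, which the authors made by dividing counts by a library total smaller than the table's sum. Columns with the authors' p-value, log2 fold change and linear fold were left aside. Only the counts were used. Tools in the submitters' processing notes are bcl2fastq, Bowtie 1.1.1 and edgeR, with GRCh38 as the build. For mismatches and for reads matching several miRNAs, the rule is not stated in the sources used. All columns of values per sample were mapped, and 0 were left over.

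Samples were grouped by the treatment in their labels. Counts were fitted by the two-sided quasi-likelihood test of edgeR 4.0.16 under R 4.3.3, with TMM factors, after its filter on low counts (minimum count 10, minimum total 15), which kept 758 miRNAs. P-values were adjusted by Benjamini-Hochberg over all of them. For arm ratios, 0.5 reads were added per arm, and log2 of 3p over 5p reads was fitted in limma 3.58.1. This covered 182 hairpins whose arms both averaged 10 reads or more. Their arms are named alike, except for miR-29b, which was added with its 5p arms summed. Other miRNAs whose arms are not named alike, such as miR-24 and miR-125b, were left out. Ratios between arms were tested by exact permutation of the libraries. Alternatives were other scaling factors, DESeq2 1.42.0, limma on log2(CPM + 1), other filters, a replicate block, removal of the GC trend (lowess span 0.5) and leaving out each library. The model steps were tested on simulated data. Intervals of single counts and shares cover counting error only, and reads without molecular identifiers are not independent molecules.

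Libraries of a group differed far beyond sampling noise, with a chi-square of 124.7 or more for each degree of freedom, so each counted as 1 sample. The groups share replicate numbers, whose meaning no source used here states. Across miRNAs, the deviations from group means of libraries with the same number correlated at 0.249, 0.233 and 0.224, each above the 0.1 taken as pairing, so the fit with the replicate block was run beside the other.

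Sequences and GC content come from RefSeq tables on GRCh38.p14, which matched 1425 of 1596 miRNAs (679 of 758 tested), and gene models from GENCODE 29. The family, the lists, the markers and the rule for named miRNAs were chosen with earlier results of these data known. The rule names all 7 arms. Of each list it names the members that passed and otherwise up to 4 of the most abundant. It also names the neighbours in rank of miR-29a-3p and miR-29b-3p and the 5 miRNAs most like each. MiR-147b-3p, miR-519e-3p and single markers were named outside this rule, after their values were seen.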

Additional observations from a re-analysis of the deposited data

How the results depend on the processing

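The 7 fold changes and 3 arm ratios were recomputed under alternatives, and 133 of 141 values kept the direction and the side of the threshold. For the 4 ratios between arms 29 of 32 values kept the direction, and their exact p cannot pass the threshold in this design. MiR-29b-3p passed only with library totals only (log2 fold change 1.01, edgeR adjusted p = 0.0383), a scaling that moves the median of all miRNAs to 0.33. With the replicate block the pairing changed no call of a miR-29 arm at an adjusted p, and the log2 fold change of miR-29b-3p was 0.65 (edgeR adjusted p = 0.200). With the block and the GC trend removed together it was 1.19 (edgeR adjusted p = 0.0843).

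Signs turned in 10 values. MiR-29b-2-5p was at 0.024 with library totals only and 0.21 without combined treatment library 2. MiR-29a-3p was at −0.022 with upper-quartile factors, at −0.077 without combined treatment library 1 and at −0.083 without RSL3 library 2. MiR-29c-5p was at −0.089 without combined treatment library 1 and −0.022 without RSL3 library 3. The log2 ratio of miR-29b-1-5p over miR-29a-5p was at 0.0029 and 0.013 without combined treatment libraries 1 and 3, and at 0.084 without RSL3 library 1. The causes were not tested.

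Leaving out each library in turn gave log2 fold changes of −0.083 to 0.19 for miR-29a-3p, 0.038 to 0.61 for miR-29a-5p, 0.35 to 0.92 for miR-29b-3p, 0.056 to 0.595 for miR-29b-1-5p, −0.77 to 0.21 for miR-29b-2-5p, 0.43 to 0.62 for miR-29c-3p and −0.089 to 0.36 for miR-29c-5p. The arm ratio changed by −0.64 to −0.074 for miR-29a, 0.24 to 0.52 for miR-29b and 0.11 to 0.59 for miR-29c. The log2 ratio difference ran from 0.41 to 0.85 for miR-29b-3p over miR-29a-3p, 0.31 to 0.71 for miR-29c-3p over miR-29a-3p, −0.14 to 0.084 for miR-29b-1-5p over miR-29a-5p and 0.13 to 0.36 for the 5p arms of chromosome 7 over those of chromosome 1.

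The background itself moved. Over all miRNAs 19 were called higher and 17 lower, against 60 and 11 with library totals only, 52 and 44 with DESeq2, 50 and 56 with no filter, 39 and 43 with the replicate block (10.8% of 758) and 11 and 9 with the GC trend removed. It ran from 0 and 0 without RSL3 library 1 to 45 and 50 without combined treatment library 1. With a minimum mean of 10 CPM, miR-29b-2-5p was not tested. Depth limits miR-29b-2-5p and miR-29c-3p, and 3 libraries a group limit every arm.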
